A study of Mus musculus with 7 samples.

Results

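The data described here are the RNA levels of 33 genes of motile cilia and of the ependyma in the forebrain of *Lhx6* mutant mice at postnatal day 15. The genes were taken by symbol from a table of 47729 genes, and all 33 were found and all 33 had enough counts to be tested, as did 19684 genes in all. Of the 33 genes, 3 were lower in mutants at an adjusted p of 0.05 or less, namely *Dnah5*, *Tppp3* and *Zmynd10*, and 0 were higher. Forebrain RNA was compared between 4 control pools (*Lhx6*+/-) and 3 mutant pools (*Lhx6*-/-), each of 2 animals of an F1 between C57BL/6 and 129Sv. The null allele was Lhx6tm2Vpa, and the controls carried 1 copy of it, so no pool was free of the allele. *Lhx6* encodes a transcription factor known for its role in interneurons that arise in the medial ganglionic eminence. The pools were of males, of females or mixed, and the count columns give the genotype with a number (control libraries 2, 3, 10 and 11, mutant libraries 5, 12 and 13) but not the pool. Sex was therefore not assigned to libraries, and its part in the values below was not tested.

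Ependymal cells line the brain ventricles and carry tufts of motile cilia whose beat moves the cerebrospinal fluid. The shaft of such a cilium, the axoneme, has a ring of microtubule doublets around a central pair. Outer and inner dynein arms on the doublets are the motors, radial spokes link the ring to the central pair, and a nexin link joins neighbouring doublets. The dynein arms are put together in the cytoplasm by dedicated assembly factors before they enter the cilium. The programme is switched on by multicilin (*Mcidas*) and its relative *Gmnc*, and then by the transcription factor *Foxj1* and by RFX factors, which bind a DNA element called the X-box. In mice, loss of axonemal genes such as *Hydin* or *Ccdc39* is known to lead to hydrocephalus.

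The 7 libraries held 32556183 to 38068931 counts each. Where a gene has no count, up to 3 counts remain possible, which is 0.0921 CPM (counts scaled to library size) in the smallest library, a limit for counting error only. *Lhx6* had 476 to 615 normalized read counts in controls and 70.1 to 76.6 in mutants. All 15 forebrain markers passed the filter on low counts, and 8 of 22 markers of neighbouring brain regions did. Among the latter, *Th* was called higher in mutants (log2 fold change 2.83, edgeR adjusted p = 0.00044). Control library 3 stood apart from the other libraries. It held the lowest value of 24.3% and the highest of 22.2% of the tested genes, against 9.52% to 15.8% and 9.55% to 16.8% in the others, and among the 33 genes it was the lowest library for 8 and the highest for 8 others. The library numbers fall into 2 sets, 2, 3 and 5 and then 10 to 13, each with both genotypes, and with the set as a covariate edgeR called 2205 genes in place of 954. Differences are therefore given within each set where they bear on a call. Pools differed from one another by 10.2 to 72.6 chi-square units per degree of freedom within a genotype, so no pair of libraries agreed within sampling noise. The p-values measure the spread between these libraries.

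The first comparison asked which of the 33 genes differ between the genotypes. In a quasi-likelihood fit by edgeR, adjusted by Benjamini-Hochberg over all tested genes, 3 of 33 genes (9.09%) were called lower in mutants, against 1.87% of all tested genes, and 0 were called higher, against 2.97%. In either direction the share over all tested genes was 4.85%. Before adjustment, 3 of the 33 genes had a p of 0.05 or less and were lower and 1 (*Dnah11*) was higher. Among all 19684 tested genes, 1638 were lower and 1955 higher at that unadjusted p. DESeq2 called 3 of the 33 lower and 0 higher, against 3.7% and 5.09% of all tested genes. The median log2 fold change of the 33 genes was -0.143, against -0.0127 for all tested genes, with 21 genes below 0 and 12 above. The median of the 33 was -0.0103 among libraries 2, 3 and 5 and -0.202 among libraries 10 to 13. With each library left out it ran from -0.171 to -0.0108. In 7 of the 33 genes (21.2%) each mutant library lay below each control library, against 9.00% of all tested genes, and in 3 (9.09%) each mutant library lay above, against 10.7%. The 7 genes were *Dnah5*, *Dnali1*, *Tekt4*, *Tppp3*, *Ak7*, *Ccdc39* and *Zmynd10*, and the 3 were *Dnah7a*, *Dnah9* and *Dnah11*. The sample is whole forebrain, and in such tissue fewer ciliated cells and less RNA per ciliated cell cannot be told apart. The 30 genes that were not called are not thereby shown to be equal. For 24 of them the 95% interval of the log2 fold change stayed within 1 in either direction, and for 7 (*Foxj1*, *Dnah2*, *Dnah7b*, *Dnah10*, *Rsph9*, *Ccdc39* and *Stk36*) it stayed within 0.5.

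**Figure D1:**
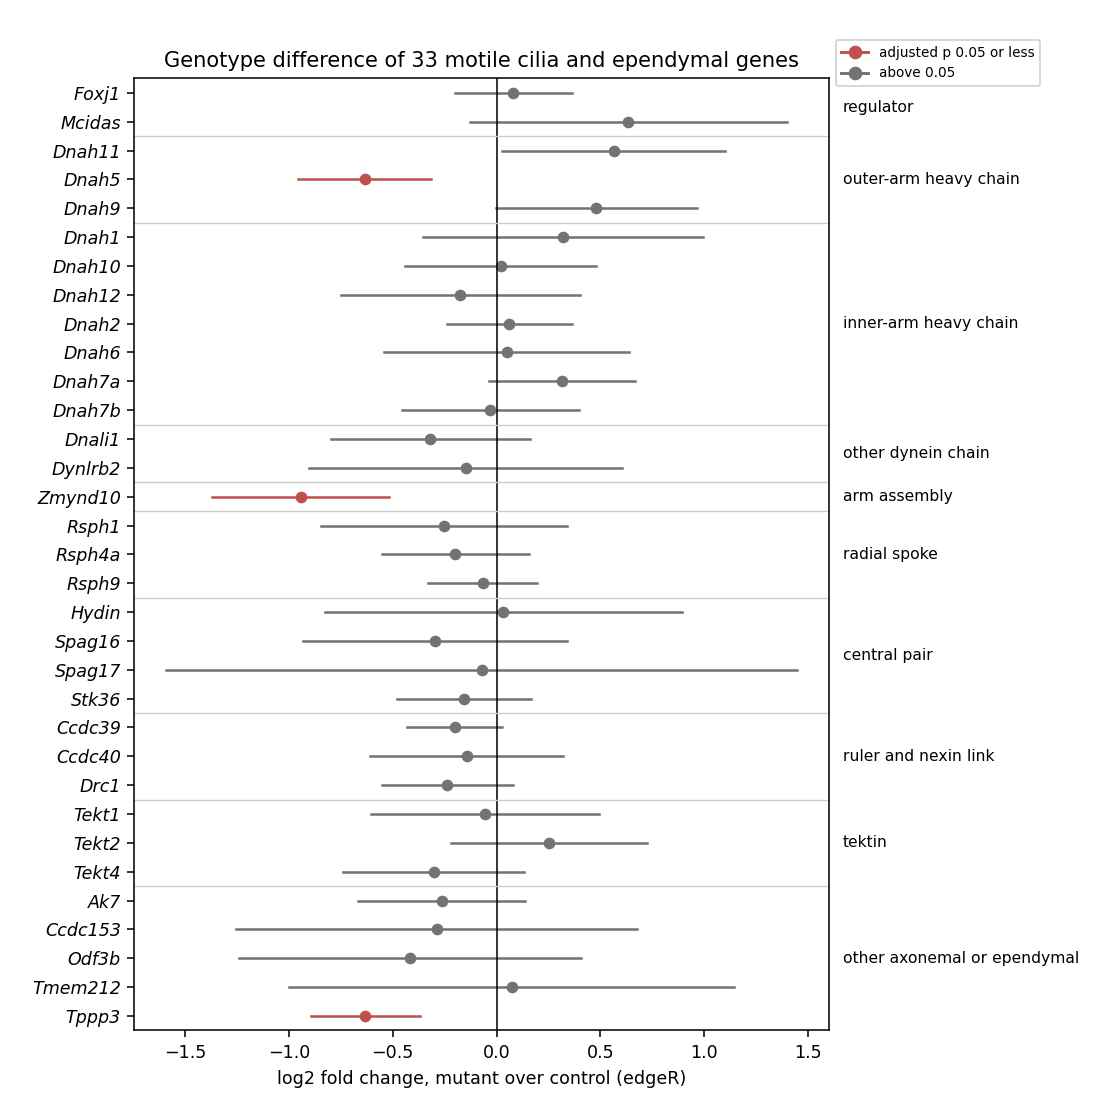
Log2 fold change of mutant over control (x axis) for each of the 33 genes (y axis), grouped by their place in the cilium. Points are edgeR estimates from 4 control and 3 mutant libraries and lines their 95% intervals. The red points are *Dnah5*, *Zmynd10* and *Tppp3*, at -0.64, -0.94 and -0.63, and all other genes had an adjusted p above 0.05.

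*Zmynd10* (ENSMUSG00000010044, chr9:107547298-107551319, plus strand, GRCm38) encodes a cytoplasmic factor needed to assemble dynein arms. It had 96.5, 80.3, 89.2 and 73.2 normalized read counts in control libraries 2, 3, 10 and 11, against 38.3, 45.5 and 48.3 in mutant libraries 5, 12 and 13. The genotypes did not overlap, and the mean fell from 84.8 ± 10.2 (SD, n = 4) to 44.1 ± 5.15 (SD, n = 3), a change of -48.0%. The log2 fold change was -0.94 (SE 0.188, 95% interval -1.37 to -0.52, edgeR adjusted p = 0.0265), the largest fall among the 33 genes. Among libraries 2, 3 and 5 it was -1.20, and among libraries 10 to 13 it was -0.78. Of its exonic length, 10.1% is shared with *Gm34106*, which had 0 to 8.77 normalized read counts.

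*Dnah5* (ENSMUSG00000022262, chr15:28203752-28472045, plus strand) encodes an outer-arm dynein heavy chain found along the length of the cilium. It had 207.3, 178.7, 226.4 and 192.1 normalized read counts in the control libraries, in the same order, and 117.8, 126.3 and 143.9 in the mutant libraries. All mutant libraries lay below all control libraries, with means of 201 ± 20.5 (SD, n = 4) and 129 ± 13.3 (SD, n = 3). The log2 fold change was -0.64 (SE 0.142, 95% interval -0.96 to -0.31, edgeR adjusted p = 0.0398), with -0.71 among libraries 2, 3 and 5 and -0.63 among libraries 10 to 13. None of its 36-base words occurs in another gene (0% shared).

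*Tppp3* (ENSMUSG00000014846, chr8:105467493-105471526, minus strand) encodes a small tubulin-binding protein and had the most counts of the 33 genes. Its normalized read counts were 858.7, 935.9, 734.0 and 739.9 in controls and 518.2, 559.9 and 503.8 in mutants. The 3 mutant libraries lay close together and well below the lowest control. The mean fell from 817 ± 97.8 (SD, n = 4) to 527 ± 29.2 (SD, n = 3), with a log2 fold change of -0.63 (SE 0.116, 95% interval -0.90 to -0.37, edgeR adjusted p = 0.0184). The difference was -0.79 among libraries 2, 3 and 5 and -0.47 among libraries 10 to 13.

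The 3 calls depended on which libraries entered the fit, while the sign of each of the 3 genes was the same under all 16 alternatives tried. With the set of library numbers as a covariate, the adjusted p (edgeR) was 0.0159 for *Zmynd10*, 0.013 for *Dnah5* and 0.00585 for *Tppp3*. Without control library 2, mutant library 5, mutant library 12 or mutant library 13, 0 of the 3 were called. The adjusted p over these 4 fits was 0.0604, 0.0976, 0.0924 and 0.0923 for *Zmynd10*, 0.0812, 0.142, 0.148 and 0.104 for *Dnah5*, and 0.0503, 0.0767, 0.0621 and 0.107 for *Tppp3*. Without control library 10 only *Tppp3* was called (*Zmynd10* 0.0778, *Dnah5* 0.114), and without control library 11 *Dnah5* was not (0.08). Without control library 3, all 3 were called (*Zmynd10* 0.0351, *Dnah5* 0.0327, *Tppp3* 0.0237). The median of the 33 genes was -0.141 without control library 3 and -0.0108 without control library 10.

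**Figure D2:**
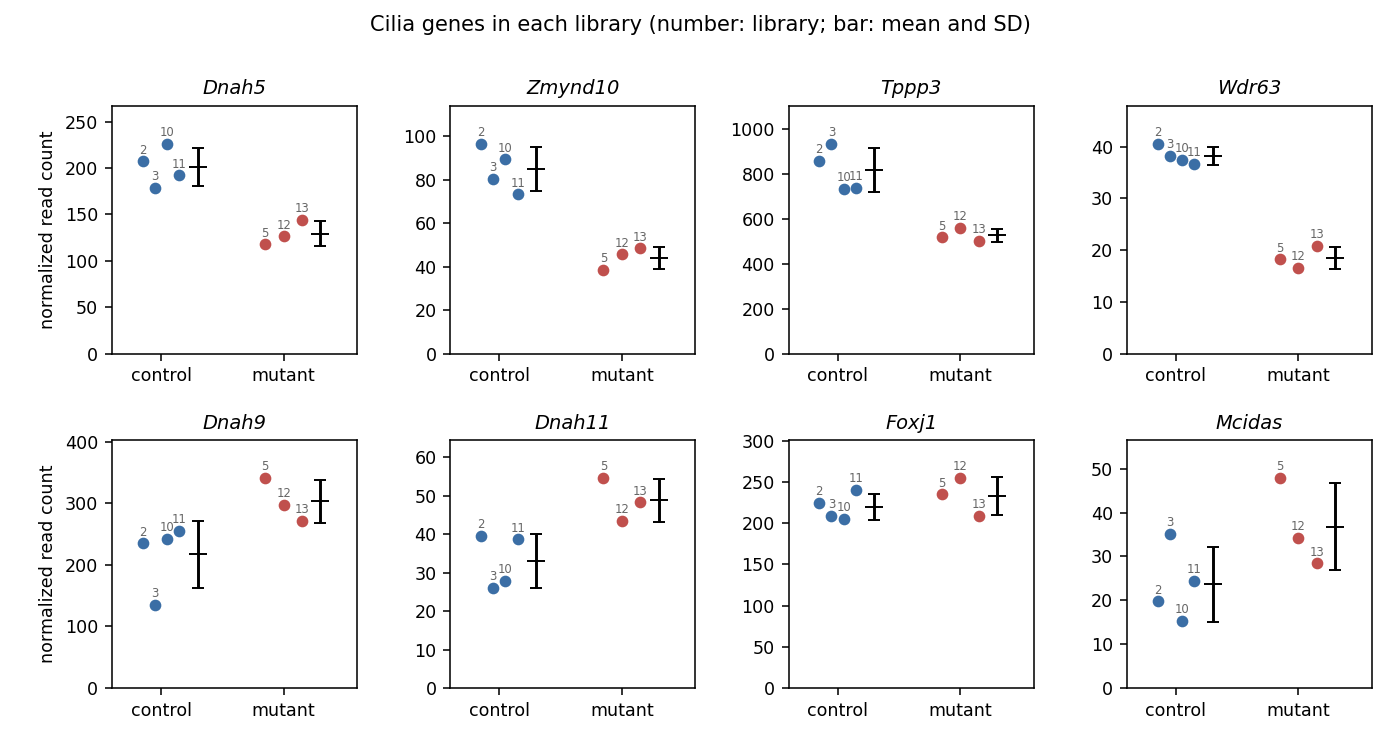
Normalized read counts (y axis) of 8 cilia genes in the 4 control and 3 mutant libraries, with the library number at each point and the mean and SD beside each group. In *Dnah5*, *Zmynd10*, *Tppp3* and *Wdr63* every mutant point lies below every control point, in *Dnah9* and *Dnah11* every mutant point lies above, and in *Foxj1* and *Mcidas* the groups overlap.

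Promoter sequence (250 bases before to 50 after the start, RefSeq, GRCm38.p6) was matched for 29 of the 33 genes. No sequence was matched for *Foxj1*, *Rsph1*, *Rsph4a* and *Tppp3*. The windows were searched on both strands for the X-box, written here as the arms GTNNCC and then GGNAAC with 2 bases between them, for the same with 1 base between, for the single arm GTTGCC, which can also lie within an X-box, and for the forkhead element GTAAACA. The X-box with 2 bases between was in the windows of 2 genes, *Tekt4* and *Zmynd10* (6.9% of 29), against 1.49% of 27025 genes, and the form with 1 base between in 0, against 0.722%. The single arm GTTGCC was in 14 of 29 (48.3%), against 14.1% of all genes. The forkhead element was in 1, *Ak7* (3.45%), against 4.05%. These are matches of letters and were not tested. The sequences of *Zmynd10* and *Tekt4* are shown because they hold the X-box, that of *Spag16* because it holds the single arm on both strands, and that of *Dnah5*, a called gene, because it holds none of the 4 patterns. They lie at chr9:107547054-107547353, chr17:25471340-25471639, chr1:69826720-69827019 and chr15:28203516-28203815, all on the plus strand, and are read 5′ to 3′ with the matched letters in capitals. In *Zmynd10* the X-box begins at the annotated start and lies on the minus strand, and in *Tekt4* it begins 160 bases before the start.
*Zmynd10*: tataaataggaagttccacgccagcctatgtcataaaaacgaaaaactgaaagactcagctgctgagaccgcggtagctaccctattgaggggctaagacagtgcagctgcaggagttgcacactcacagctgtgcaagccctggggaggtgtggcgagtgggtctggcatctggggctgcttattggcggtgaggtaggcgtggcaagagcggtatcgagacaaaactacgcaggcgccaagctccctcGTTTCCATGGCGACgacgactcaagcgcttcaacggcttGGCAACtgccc
*Tekt4*: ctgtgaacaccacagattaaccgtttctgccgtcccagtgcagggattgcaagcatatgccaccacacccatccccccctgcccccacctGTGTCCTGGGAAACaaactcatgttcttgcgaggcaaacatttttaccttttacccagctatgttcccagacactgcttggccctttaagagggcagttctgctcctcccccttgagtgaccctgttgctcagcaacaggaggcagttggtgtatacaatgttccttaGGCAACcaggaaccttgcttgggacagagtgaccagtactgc
*Spag16*: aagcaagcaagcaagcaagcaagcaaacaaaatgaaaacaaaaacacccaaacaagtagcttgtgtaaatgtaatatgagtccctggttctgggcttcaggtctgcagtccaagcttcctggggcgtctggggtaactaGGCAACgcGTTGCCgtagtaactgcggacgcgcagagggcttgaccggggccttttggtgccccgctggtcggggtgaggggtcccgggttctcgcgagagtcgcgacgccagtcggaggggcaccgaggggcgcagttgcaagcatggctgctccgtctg
*Dnah5*: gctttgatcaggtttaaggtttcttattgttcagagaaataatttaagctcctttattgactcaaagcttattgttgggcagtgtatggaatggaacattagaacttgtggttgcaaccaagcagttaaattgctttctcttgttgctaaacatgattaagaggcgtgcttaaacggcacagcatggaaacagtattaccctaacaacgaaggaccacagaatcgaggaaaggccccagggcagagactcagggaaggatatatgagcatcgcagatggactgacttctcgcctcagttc

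Neither regulator among the 33 genes passed the test. *Foxj1*, the transcription factor of motile ciliogenesis, had 224.8, 208.9, 205.3 and 239.9 normalized read counts in controls and 234.7, 254.6 and 208.3 in mutants. The groups overlapped throughout, and the log2 fold change was 0.08 (95% interval -0.20 to 0.36, edgeR adjusted p = 0.809), the level of *Foxj1* being among the more tightly bounded of the 33. *Mcidas*, which starts the multiciliated fate in precursor cells, had few counts, at 19.7, 35.1, 15.4 and 24.4 in controls and 47.9, 34.2 and 28.4 in mutants. Its groups overlapped at control library 3, and the log2 fold change of 0.64 had a 95% interval of -0.13 to 1.40 (edgeR adjusted p = 0.374). Its relative *Gmnc*, from the list of other regulators, had 31.8, 24.1, 36.5 and 22.4 in controls and 13.4, 20.7 and 15.2 in mutants, with a log2 fold change of -0.80 (edgeR adjusted p = 0.205). Of 27 tested regulators of multiciliation, 0 were called in either direction by edgeR, with an unadjusted p of 0.05 or less in 3 higher and 2 lower, and DESeq2 also called 0. Their median was -0.00625. With the set of library numbers as a covariate 1 was called, *Rfx3*, an X-box binding factor, lower in mutants. *Rfx3* had a log2 fold change of -0.28 without the covariate (edgeR adjusted p = 0.12), from 1963, 1976, 2331 and 2110 to 1591, 1778 and 1792 normalized read counts.

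The outer-arm heavy chains lay on both sides of 0. Beside the fall of *Dnah5*, the mutant libraries lay above the control libraries for the other two heavy chains, neither of which was called. *Dnah9*, which in airway cilia sits in the distal part, had 234.7, 135.6, 242.7 and 255.1 normalized read counts in controls and 341.0, 297.1 and 270.8 in mutants. Its log2 fold change was 0.48 (95% interval -0.0034 to 0.97, edgeR adjusted p = 0.277), with 0.88 among libraries 2, 3 and 5 and 0.19 among libraries 10 to 13. Control library 3 was far below the other controls, and without it the log2 fold change was 0.31 (edgeR adjusted p = 0.212). *Dnah11*, which in airway cilia sits in the proximal part, had 39.5, 26.1, 27.8 and 38.6 in controls and 54.6, 43.5 and 48.3 in mutants, a log2 fold change of 0.56 (95% interval 0.03 to 1.10, edgeR adjusted p = 0.248). The ratio of *Dnah5* to *Dnah9* counts was 0.883, 1.32, 0.933 and 0.753 in controls and 0.346, 0.425 and 0.531 in mutants. This ratio could not overlap, because every mutant library was below every control for *Dnah5* and above every control for *Dnah9*. The ratio of *Dnah9* to *Dnah11* overlapped, at 5.19 to 8.72 in controls and 5.61 to 6.83 in mutants. These ratios were chosen after the values were seen, and no test is given. *Dnah9* shares 3.1% of its exonic length with *Gm12296* and *Dnah11* 4.44% with *Cdca7l*, while *Dnah5* shares 0%.

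None of the 7 inner-arm heavy chains passed the test. Their log2 fold changes ran from -0.18 (*Dnah12*) to 0.32 (*Dnah1*). *Dnah1* had 199.6, 106.4, 258.1 and 252 normalized read counts in controls and 188.7, 300.2 and 276.5 in mutants, and control library 3 was again the lowest. *Dnah6* had 201.8, 108, 190.0 and 247.0 in controls and 220.3, 156.3 and 203 in mutants. The same library was lowest for *Dnah10*, at 79.3 against 101.7 to 130.5 in the other controls and 95.2 to 122.6 in mutants. *Dnah2* was more even, at 153.5 to 179.9 in controls and 150.6 to 185.8 in mutants, with a 95% interval of -0.24 to 0.36. *Dnah12* was at 27.8 to 30.7 in controls and 21.1 to 33.1 in mutants. *Dnah7a*, at 60.0 to 68.0 in controls and 75.6 to 79.5 in mutants, had a log2 fold change of 0.31 (edgeR adjusted p = 0.338) and groups that did not overlap. Its close copy *Dnah7b* was at 110.8 to 153.6 and 112.1 to 154.2, with -0.03 (adjusted p = 0.962). The *Dnah7a* and *Dnah7b* transcripts have 4968 words of 36 bases in common, 39.0% of those of *Dnah7a* and 24.8% of those of *Dnah7b*. Counting all other genes, 49.3% of the words of *Dnah7a* and 37.0% of those of *Dnah7b* are shared. *Dnah7b* shares most with a further copy, *Dnah7c*. Reads could therefore be moved between the copies by the counting, and both values are uncertain.

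The other dynein chains of the set were low. *Dnali1*, a light intermediate chain of the inner arm, had 38.4, 32.1, 35.5 and 40.7 normalized read counts in controls and 27.8, 30.0 and 30.3 in mutants. Its groups did not overlap, and the log2 fold change of -0.32 was not called (95% interval -0.80 to 0.16, edgeR adjusted p = 0.503). *Dynlrb2*, a light chain of the roadblock family, was at 9.87 to 19.1 in controls and 13.5 to 15.2 in mutants.

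Of the 3 radial spoke genes, none was called. *Rsph1*, a spoke head protein, had 114, 131, 90.2 and 88.4 normalized read counts in controls and 126, 70.4 and 69.1 in mutants, so mutant library 5 lay with the controls. *Rsph4a*, also of the spoke head, was at 95.5 to 120.5 in controls and 82.4 to 98.7 in mutants (log2 fold change -0.20, edgeR adjusted p = 0.587). *Rsph9* was at 250 to 293.6 and 233.7 to 269.9, with a 95% interval of -0.33 to 0.20.

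Of the 4 genes of the central pair, none was called, and 2 of them turned on control library 3. *Hydin*, a large protein of a central pair projection, had 84.4, 23.1, 58.5 and 72.2 normalized read counts in controls and 69.0, 53.8 and 59.7 in mutants. *Spag17* had 18.6, 1.00, 18.2 and 14.2 in controls and 16.3, 10.3 and 10.4 in mutants, and its 95% interval of -1.59 to 1.45 was the widest of the 33 genes. For both, the mutant values lay within the range of the controls. *Spag17* shares 15.7% of its exonic length with *Spag17os* and *Wdr3*. *Wdr3* had 547 ± 80.6 normalized read counts in controls (SD, n = 4) and 473 ± 16.9 in mutants (SD, n = 3). The part of *Wdr3* in the counts of *Spag17* was not tested. *Spag16*, another protein of the central apparatus, was at 19.7 to 27.4 in controls and 15.5 to 24.6 in mutants (-0.30, edgeR adjusted p = 0.666). *Stk36*, a kinase needed to build the central pair, was at 212.9 to 274.2 in controls and 182.0 to 226.7 in mutants (-0.16, adjusted p = 0.652).

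The ruler proteins *Ccdc39* and *Ccdc40* set the spacing of arms and spokes along the doublet, and *Drc1* is part of the nexin link. *Ccdc39* had 679.9, 592.5, 615.9 and 595.6 normalized read counts in controls and 586, 510.3 and 522.7 in mutants. The groups did not overlap, by a narrow margin, and the log2 fold change was -0.20 (95% interval -0.43 to 0.03, edgeR adjusted p = 0.347). *Ccdc39* shares 16.9% of its exonic length with the neighbouring gene *Ttc14*, which had 3947 ± 236 normalized read counts in controls (SD, n = 4) and 3098 ± 263 in mutants (SD, n = 3), with a log2 fold change of -0.35 (edgeR adjusted p = 0.0601). Its part in the counts of *Ccdc39* was not tested. The partner *Ccdc40* overlapped between genotypes, at 91.4 to 116.2 and 72.9 to 116.9, with -0.14 (adjusted p = 0.796). *Drc1* also overlapped, at 621.8, 799.3, 636.1 and 577.3 in controls and 626.5, 497.8 and 551.1 in mutants (-0.24, adjusted p = 0.43).

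Tektins form filaments in the doublet wall, and none of the 3 in the set was called. *Tekt4*, whose promoter is shown above, had 50.4, 68.3, 56.6 and 52.9 normalized read counts in controls and 46.9, 43.5 and 48.3 in mutants. Its groups did not overlap, and the log2 fold change was -0.30 (95% interval -0.74 to 0.13, edgeR adjusted p = 0.479). *Tekt1* was at 38.6 to 63.3 in controls and 48.9 to 49.7 in mutants, and *Tekt2* at 35.5 to 49.4 and 44.5 to 50.8, with a log2 fold change of 0.25 (adjusted p = 0.606). *Tekt2* shares 20.8% of its exonic length with *Gm12945*, which had 0 to 2.87 normalized read counts.

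Among the remaining axonemal and ependymal genes, *Ak7* had non-overlapping groups and was not called. *Ak7*, an adenylate kinase of ciliated cells, had 59.2, 75.3, 63.3 and 62.0 normalized read counts in controls and 57.5, 51.8 and 53.0 in mutants (-0.26, edgeR adjusted p = 0.509). *Ccdc153* and *Tmem212*, often used to mark ependymal cells, were low and uneven. *Ccdc153* had 17.5, 20.1, 46.1 and 22.4 in controls and 31.6, 15.5 and 18.0 in mutants, and its log2 difference was 0.73 among libraries 2, 3 and 5 and -1.01 among libraries 10 to 13. *Tmem212* had 23.0, 5.02, 18.2 and 19.3 in controls and 17.2, 13.5 and 20.8 in mutants, with control library 3 again the lowest. *Odf3b* was at 12.2 to 27.4 in controls and 12.4 to 16.1 in mutants (-0.42, 95% interval -1.24 to 0.41).

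**Figure D3:**
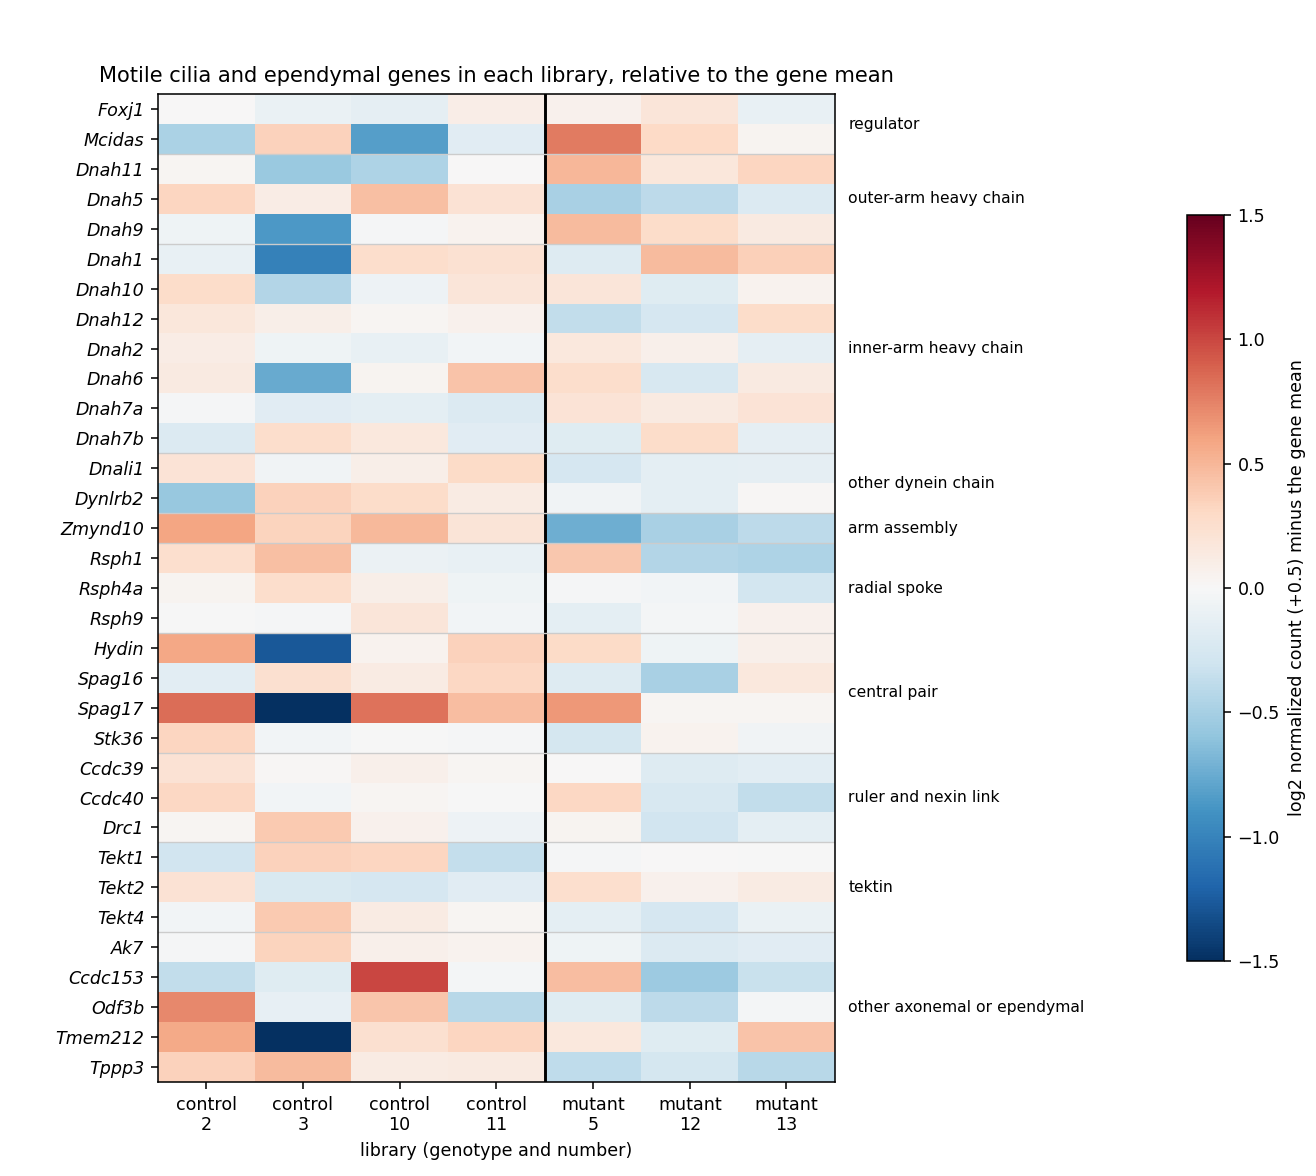
Each of the 33 genes (rows) in each library (columns), as log2 of the normalized read count plus 0.5 minus the mean of the gene over the 7 libraries. The colour scale ends at 1.5 in either direction. Control library 3 is blue for *Dnah1*, *Dnah6*, *Dnah9*, *Hydin*, *Spag17* and *Tmem212* and red for genes such as *Tppp3*, *Drc1* and *Tekt4*.

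The 33 genes did not vary as a block across the libraries. Control library 3 was the lowest of all 7 for *Dnah1*, *Dnah6*, *Dnah9*, *Dnah10*, *Dnah11*, *Hydin*, *Spag17* and *Tmem212*, and the highest for *Dynlrb2*, *Rsph1*, *Rsph4a*, *Tekt1*, *Tekt4*, *Tppp3*, *Drc1* and *Ak7*. The first group includes 5 of the dynein heavy chains, whose exons add up to 12.9 kb (*Dnah1*), 13.2 kb (*Dnah6*), 15.9 kb (*Dnah9*), 16.1 kb (*Dnah10*) and 14.5 kb (*Dnah11*), and *Hydin*, at 15.8 kb, whereas the exons of the second group ran from 0.5 kb (*Dynlrb2*) to 3.6 kb (*Rsph4a*). *Tmem212*, at 0.7 kb, belongs to the first group. The part of transcript length in these values was not tested. Mutant library 5 was the highest of the mutants for *Rsph1*, *Ccdc40*, *Ccdc153* and *Mcidas* and the lowest for *Dnah5* and *Zmynd10*.

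Summed over the 33 genes, normalized read counts were 5208, 4883, 4991 and 4880 in the control libraries and 4667, 4429 and 4393 in the mutant libraries. The sums did not overlap, and the mutant mean was lower by 9.9% (-9.9%). *Tppp3* made up 16.4% of the control sum and 58.6% of the difference. Without *Tppp3* the sums were 3947 to 4349 in controls and 3869 to 4149 in mutants, which overlap, and the difference was -4.9%. Per length, the summed level was 44.8, 46.6, 43.4 and 40.9 RPKM in controls and 38.5, 35.7 and 35.7 RPKM in mutants, and without *Tppp3* it was 29.7 to 32.4 RPKM in controls and 27.2 to 30.6 RPKM in mutants.

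Levels between genes were compared only per length, as reads per kilobase of exon scaled to library size (RPKM). *Tppp3* had the highest level, at 12.4 ± 1.48 RPKM in controls (SD, n = 4) and 8.0 ± 0.442 RPKM in mutants (SD, n = 3), followed by *Drc1* at 6.88 ± 1.01 RPKM and *Rsph9* at 4.62 ± 0.352 RPKM in controls. *Rsph1*, *Foxj1* and *Ccdc39* followed at 2.55, 2.35 and 2.34 RPKM, values that overlapped from each gene to the next. From *Zmynd10* (1.12 RPKM) to *Dnah7b* (0.182 RPKM) each gene overlapped with its neighbour in the order. At the low end were *Spag16* (0.101 RPKM), *Dnah12* (0.0733 RPKM), *Dnah11* (0.064 RPKM) and *Spag17* (0.043 RPKM). In 6 of the 32 neighbouring pairs the control libraries did not overlap.

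**Figure D4:**
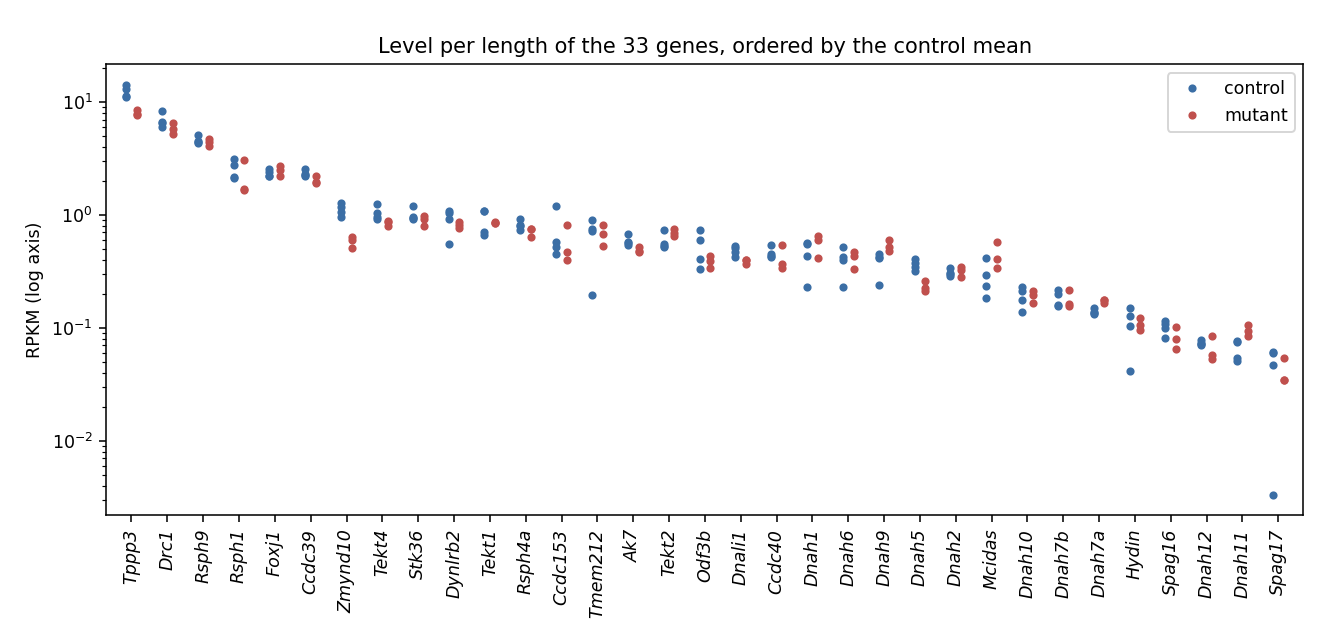
Level per length (RPKM, log axis) of the 33 genes, ordered by the control mean, with 1 point per library. The control means run from 12.4 for *Tppp3* to 0.043 for *Spag17*, and the mutant points of *Tppp3*, *Zmynd10* and *Dnah5* lie below the control points.

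Beyond the 33 genes, 90 other genes of motile cilia were tested, of 99 found in the table. Of these, 1 was called lower and 2 higher (3.33% in either direction), and their median log2 fold change was -0.129, close to that of the 33, with 60 below 0 and 30 above. The lower one was *Wdr63*, an intermediate chain of an inner dynein arm, which had 40.6, 38.2, 37.4 and 36.6 normalized read counts in controls and 18.2, 16.6 and 20.8 in mutants. Its log2 fold change was -1.04 (SE 0.226, 95% interval -1.55 to -0.52, edgeR adjusted p = 0.0366), with -1.09 among libraries 2, 3 and 5 and -0.97 among libraries 10 to 13. Leaving out each library in turn kept it called without control library 3 (edgeR adjusted p = 0.0479) and not without any 1 of the other libraries (0.0756 to 0.147). The higher ones were *Tekt5*, a tektin known from sperm, and *Cfap43*, an axonemal protein. *Tekt5* had 159.0, 174.7, 194.8 and 162.6 in controls and 371.7, 395.4 and 329.5 in mutants (log2 fold change 1.08, SE 0.124, edgeR adjusted p = 0.00252), and it was called with each library left out in turn (adjusted p 0.00556 to 0.0181). *Cfap43* had 107.5, 95.4, 81.6 and 74.2 in controls and 165.7, 145.9 and 161.0 in mutants (0.81, SE 0.166, adjusted p = 0.0288), and it was called without control library 2 or 3 (0.0287 and 0.0382) and not without any 1 of the others (0.0695 to 0.127).

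The other named genes of this list were not called. The outer-arm intermediate chain gene *Dnaic1* was at 136.2 to 153.6 normalized read counts in controls and 131.2 to 165.7 in mutants. *Dnaic2*, of the same role, was at 52.6 to 89.4 and 86.2 to 103.5 (log2 fold change 0.49, edgeR adjusted p = 0.25). *Cfap44*, a partner of *Cfap43* in the axoneme, was at 76.3 to 159.0 and 83.3 to 107.3 (-0.17, adjusted p = 0.811). *Cfap54* and *Spag6l*, both of the central pair, had log2 fold changes of -0.23 each, with an edgeR adjusted p of 0.572 and 0.547. *Fam183b* was at 17.1 to 26.3 in controls and 15.5 to 20.1 in mutants. Among regulators, *Ccno*, which acts in centriole amplification, had 26.3, 21.1, 41.3 and 51.8 in controls and 53.6, 46.6 and 51.1 in mutants (0.52, edgeR adjusted p = 0.455), and *Rfx2* was at 48.2 to 136.0 and 102.5 to 115.5 (0.08, adjusted p = 0.931). Primary cilia, the immotile kind that most neurons and glia carry, share their transport machinery with motile cilia. Of 55 tested genes of primary cilia and of transport in cilia, *Ift122* was lower and *Kif17* higher in mutants. *Ift122*, of the retrograde transport complex, fell by 0.40 on the log2 scale (edgeR adjusted p = 0.023). *Kif17*, a kinesin, rose by 0.44 (adjusted p = 0.0263). *Ift122* was called without control library 3 (0.0216) and *Kif17* without control library 3 or 11 (0.0357 and 0.0408). Neither was called with any 1 of the other libraries left out (0.0563 to 0.121 for *Ift122* and 0.0582 to 0.102 for *Kif17*). The median of the list was -0.121.

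**Figure D5:**
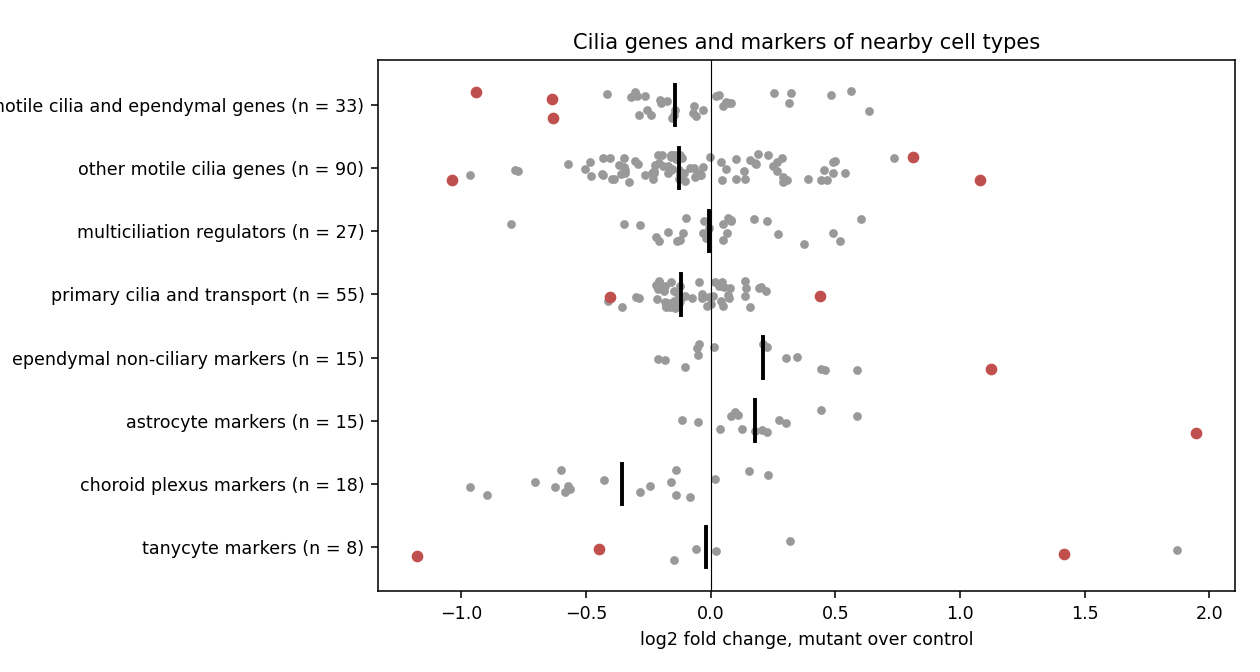
Log2 fold change of mutant over control (x axis) for the genes of 8 lists (y axis, with the number tested). Each point is 1 gene, red at an edgeR adjusted p of 0.05 or less, and the bar is the median of the list. The medians run from -0.357 for choroid plexus markers to 0.21 for ependymal markers outside the cilium.

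Markers of the cells around the ventricles were read beside the cilia genes. Of 15 markers of ependymal cells that are not ciliary, *Vim* alone was called, and the median was 0.21, with 9 above 0. With each library left out this median ran from 0.0981 (without control library 3) to 0.28 (without control library 2). DESeq2 also called *Aqp4* and *Gja1* higher in mutants, and edgeR with the set of library numbers as a covariate called *Aqp4*, *Gja1* and *Cd24a* besides *Vim*. *Vim*, an intermediate filament that astrocytes also make, had 1411, 1689, 1534 and 1390 normalized read counts in controls and 3712, 2864 and 3276 in mutants (1.12, SE 0.108, edgeR adjusted p = 0.0011). *Cd24a*, *Rarres2* and *Mia*, which mark ependyma more closely, overlapped between genotypes and were not called without that covariate, with log2 fold changes of 0.35, -0.18 and -0.21 (adjusted p = 0.555, 0.812 and 0.819). The astrocyte marker *Gfap* was higher in mutants, at 6208, 6238, 7255 and 6445 in controls and 26006, 22333 and 27251 in mutants (1.95, SE 0.10, edgeR adjusted p = 7.41e-05). *Aqp4*, a water channel of astrocytes and ependyma, was not called in the fit without the covariate (0.59, adjusted p = 0.0716), nor was *Sox9* (0.23, adjusted p = 0.616). Of 15 astrocyte markers 13 were above 0, with summed levels of 298700 to 395290 in controls and 441510 to 493230 in mutants. The part of this shift in the values of the cilia genes was not tested.

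The choroid plexus, whose epithelium also expresses cilia genes, lies within the ventricles. Of its 18 tested markers 15 were below 0 (median -0.357) and edgeR called 0 in either direction, with an unadjusted p of 0.05 or less in 3 lower and 0 higher, while DESeq2 called 1, lower (*Enpp2*). The summed level was 18981 to 29544 in controls and 14712 to 23909 in mutants. *Ttr*, a thyroid hormone carrier that the plexus secretes, had 9219, 4290, 6652 and 8538 normalized read counts in controls and 1997, 7040 and 4940 in mutants (-0.62, edgeR adjusted p = 0.485). *Kcnj13* had 51.5, 1.00, 61.4 and 62.0 in controls and 17.2, 40.4 and 29.4 in mutants, so control library 3 was near 0. *Clic6*, *Folr1* and *Otx2* had log2 fold changes of -0.25, -0.70 and -0.90 (adjusted p = 0.776, 0.221 and 0.383). In control library 3, the lowest control for *Ttr* and *Kcnj13*, *Tppp3* was the highest and *Dnah5* the lowest of the controls, and *Zmynd10* lay within their range. In mutant library 5, the lowest mutant for *Ttr* and *Kcnj13*, *Dnah5* and *Zmynd10* were the lowest of the mutants and *Tppp3* lay between the other mutants. The part of the choroid plexus in the calls of *Tppp3*, *Dnah5* and *Zmynd10* was not tested. Of 10 markers of tanycytes, the ependymal cells of the third ventricle, 8 were tested, and *Rax*, the defining one, had 0 to 2 counts. *Scn7a* was called higher (1.42, edgeR adjusted p = 0.035) and *Crym* lower (-1.18, adjusted p = 0.00224), both being genes that other brain cells also express. Leaving out each library in turn, *Crym* was called in all 7 fits and *Scn7a* in 1 (0.0397 without mutant library 5, up to 0.113 otherwise).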

How the data were processed

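Forebrain RNA was read as 36 bp single ends from 4 control and 3 mutant pools. The authors trimmed the reads with cutadapt 1.9.1, aligned them to GRCm38 transcripts with Bowtie2 2.2.9 and deposited RSEM 1.2.31 expected counts per gene, without normalization, in which 32.9% to 36.0% of values per library are not whole. RSEM divides ambiguous reads between the genes they fit, so close copies and overlapping genes are less certain, and whether strand was used in counting is not given in the sources used here. A deposited table of the authors' own DESeq2 comparison was used only for gene symbols, and the deposited exon annotation for positions and lengths. The paper gives 1 μg of RNA per library and the labels 0.5 μg, and RIN values were 9 to 10. All columns of per-sample values were mapped to a genotype.

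Counts were rounded, and genes reaching 10 counts in 3 or more libraries were scaled by TMM and tested with edgeR 4.0.16 (R 4.3.3, quasi-likelihood F-test, Benjamini-Hochberg over all tested genes, threshold 0.05), with no covariate. The SE is the size of the log2 fold change divided by the root of the F statistic. Normalized read counts are relative to the mean effective library size, and log2 differences within sets of libraries add 0.5 to the mean. Alternatives were DESeq2 1.42.0, limma-voom (limma 3.58.1), other scalings and filters, unrounded counts, the set of library numbers as a covariate, libraries from 10 only, and each library left out. Tests were tried on simulated data. The members and lists were chosen with earlier results of these data known. Named genes are all 33, called genes of the other lists (the 4 largest changes where over 6 were called) and a set of markers, regulators and axonemal genes such as *Gmnc*, *Ttr* and *Dnaic1*, while *Enpp2*, *Gja1* and the genes that overlap members were named after their values were seen. Some genes called in the other lists are not reported here. Shared 36-base words come from GENCODE transcripts of GRCm38.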

Additional observations from a re-analysis of the deposited data

Results flagged for a closer look

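The 34 sets of control libraries that were checked include 1 for each of the 33 genes. In 4 of the 34, 1 library lay further from the rest than Dixon's limit for 4 samples allows. Chance alone gives about 1 in 20, and the sets share their libraries, so they are not independent. *Dnah9* had 136 normalized read counts in control library 3 against 235 to 255 in the other controls. *Tekt2* had 49.4 in control library 2 against 35.5 to 37.6. *Ccdc153* had 46.1 in control library 10 against 17.5 to 22.4. *Stk36* had 274 in control library 2 against 213 to 218. The mutant group has 3 libraries and was not checked in this way.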

How the results depend on the processing

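The genes were refitted under 16 alternatives, with *Dynlrb2*, *Spag17* and *Tmem212* absent from the filter on all 7 libraries. The 3 lower genes (*Dnah5*, *Tppp3* and *Zmynd10*) were also the ones called by DESeq2, limma-voom, RLE and upper quartile scaling, a filter on all 7 libraries, unrounded counts and the set of library numbers as a covariate. The share of all tested genes called lower was 3.7% by DESeq2 and 5.04% with that covariate. It was 1.58% to 2.4% in the others of these settings, against 1.87% in the fit described above. The count of lower genes was 1 (*Tppp3*) with no filter, 2 with libraries from 10 only, and 0 to 3 with each library left out, and the count of higher genes was 0 throughout. *Dnah5* was called in 9 of the 16 alternatives, *Tppp3* in 12 and *Zmynd10* in 9, with adjusted p from 0.00446 to 0.148, 6.13e-05 to 0.107 and 0.00334 to 0.0976. The median of the 33 genes ran from -0.171 (without control library 11) to -0.0108 (without control library 10) with each library left out. The summed level, at -0.15 on the log2 scale, was -0.0725 without *Tppp3* and -0.0556 as a mean of log2 values.

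Over all tested genes the count called was 954, against 1731 by DESeq2, 2205 with the set of library numbers as a covariate, 1923 with libraries from 10 only, and 302 (without mutant library 13) to 969 (without control library 3) with each library left out. Over the other lists, 4 genes were lower and 8 higher, against 10 lower and 15 higher with the covariate, 13 higher by DESeq2, and 1 to 4 lower and 4 to 6 higher with each library left out. The cause of these differences was not tested. No paired analysis was possible because the columns carry no replicate numbers. The 95% intervals of *Mcidas*, *Dnah11*, *Spag17*, *Ccdc153*, *Tmem212* and *Odf3b* reach beyond 1 on the log2 scale, and the cause was not tested.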
